A study of Leymus chinensis with 14 samples.

Results

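Sheepgrass (Leymus chinensis) is a forage grass whose leaves were profiled by RNA sequencing under salt and under low light, and the genes described here are the antioxidant enzymes and the ascorbate-glutathione cycle. The members are loci of the authors' transcript assembly with a transcript whose Swiss-Prot best hit bears 1 of 13 enzyme names, from superoxide dismutase to the L-galactose steps of ascorbate synthesis. The search found 52 loci, of which 8 had a fungal species as best protein hit and were set aside, leaving 44 members among 28595 loci. Names matched 11 of the 13 searches, with no locus for dehydroascorbate reductase or for L-galactono-1,4-lactone dehydrogenase among the rows held. By name, 20 members were chloroplastic, 8 cytosolic and 2 mitochondrial, and 14 carried no compartment. The names are hits to proteins of other plants, mostly wheat relatives and barley, and were not checked against any sheepgrass protein.

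The plants were 3 weeks old, were raised on diluted MS medium, and gave 14 libraries of leaf total RNA in 5 groups, with no genotype named beyond the species. At normal light there were 3 control libraries (labelled ck, read here as no added salt), 3 of low salt and 3 of high salt. At low light there were 3 control libraries and 2 of high salt. The salt concentrations, the light levels and the treatment times are not given in the sources used here. Nothing states that the libraries of a group came from separate plants, so the p-values measure the spread between these libraries, which may be technical.

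Superoxide dismutases (SOD) turn superoxide, a by-product of photosynthetic and respiratory electron transport, into hydrogen peroxide. Catalase breaks down hydrogen peroxide in peroxisomes, where photorespiration produces much of it in leaves, while ascorbate peroxidases, glutathione peroxidases and peroxiredoxins reduce peroxides elsewhere in the cell. Monodehydroascorbate reductase and glutathione reductase return spent ascorbate and glutathione to their reduced forms, and separate enzymes build ascorbate from GDP-mannose and glutathione from glutamate, cysteine and glycine.

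The deposited values are abundances per assembled transcript in an unnamed unit of a kind with TPM or FPKM, and they were summed over the transcripts of a locus. They are called abundance below and are compared between libraries, and no locus is called more abundant than another. A total of 147 transcripts made up the members, 24 of which had a single transcript. Changes are differences of mean log2(value + 1) with their standard errors (SE), which understate the change of loci with low values. A locus was called when its limma p-value, adjusted by Benjamini-Hochberg over the 20375 loci tested, was under 0.05. Of the 44 members 43 passed the filter on low values. The exception was g137177, a Peroxiredoxin OsmC hit whose closest protein was from the bacterium Pseudomonas and which stayed at or under 0.670 in all 14 libraries.

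The libraries differed in ways that touch every change against the normal-light control. The summed abundance of 59 leaf mesophyll marker loci (Rubisco small subunit, Rubisco activase and chlorophyll a-b binding proteins) was 60695 to 90058 in the normal-light controls, 39350 to 59874 in high salt at normal light, 40949 to 45696 in the low-light controls and 30456 to 57434 in high salt at low light. None of the 59 was at 0 in every library, whereas no locus bore the root marker names searched. Summed dividing-cell markers (14 loci) were 123 to 164 in the normal-light controls, 187 to 231 in high salt, 141 to 255 in the low-light controls and 244 to 255 in the combination. The 17 vascular marker loci summed to 136 to 244, 157 to 422, 179 to 282 and 214 to 286 in the same groups. In low salt the mesophyll, dividing-cell and vascular sums were 39194 to 63126, 150 to 211 and 148 to 247. Over all loci tested the median change was 0.29 for high salt, 0.34 for low light and 0.38 for low light with high salt (log2 scale). Median-of-ratios scaling, which centres the libraries on a common middle, brought these medians to 0.03, 0.03 and 0.04. For low salt the median was 0.13, and 0 after that scaling. The part of these shifts in the members' changes was not tested, and each call below is given with its adjusted p after that scaling (the scaled fit).

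Within the 43 tested members, low light moved the most loci. Against the normal-light control 11 members rose and 1 fell at low light, where 15.1% of all tested loci were called (10.8% higher, 4.33% lower). With low light and high salt together 5 members rose and 0 fell, beside 8.63% of all loci called (6.6% higher, 2.03% lower). High salt at normal light raised 3 members and lowered 0, beside 4.01% of all loci (3.03% higher, 0.982% lower). Low salt called 0 members and 0.0883% of all loci by limma, and 7 members had an unadjusted p under 0.05 (12.1% of all loci did). The median change of the members was 0.40 for high salt, 0.38 for low light and 0.23 for the combination. Over all loci it was 0.29, 0.34 and 0.38, so the members lay lower in the combination. The members' high-salt median includes g85479, which passed the filter on low values only through libraries of that group. After median-of-ratios scaling the members' medians were 0.03, 0.01 and -0.20, beside 0.03, 0.03 and 0.04 over all loci. In the scaled fit the members called were 0 for high salt (2.82% of all loci), 1 higher and 3 lower for low light (3.57% and 7.13% of all loci), and 0 higher and 1 lower for the combination (2.45% and 4.3%). When each comparison was fitted with the compared groups alone, 4 of these 20 calls passed, those of the cytosolic superoxide dismutases (SODs) g20282 and g25538 at low light and in the combination. Median-of-ratios scaling also turned the split over all tested loci, from 617 higher and 200 lower to 156 and 418 for high salt, from 2200 and 883 to 727 and 1453 for low light, and from 1345 and 414 to 499 and 877 for the combination.

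**Figure D1:**
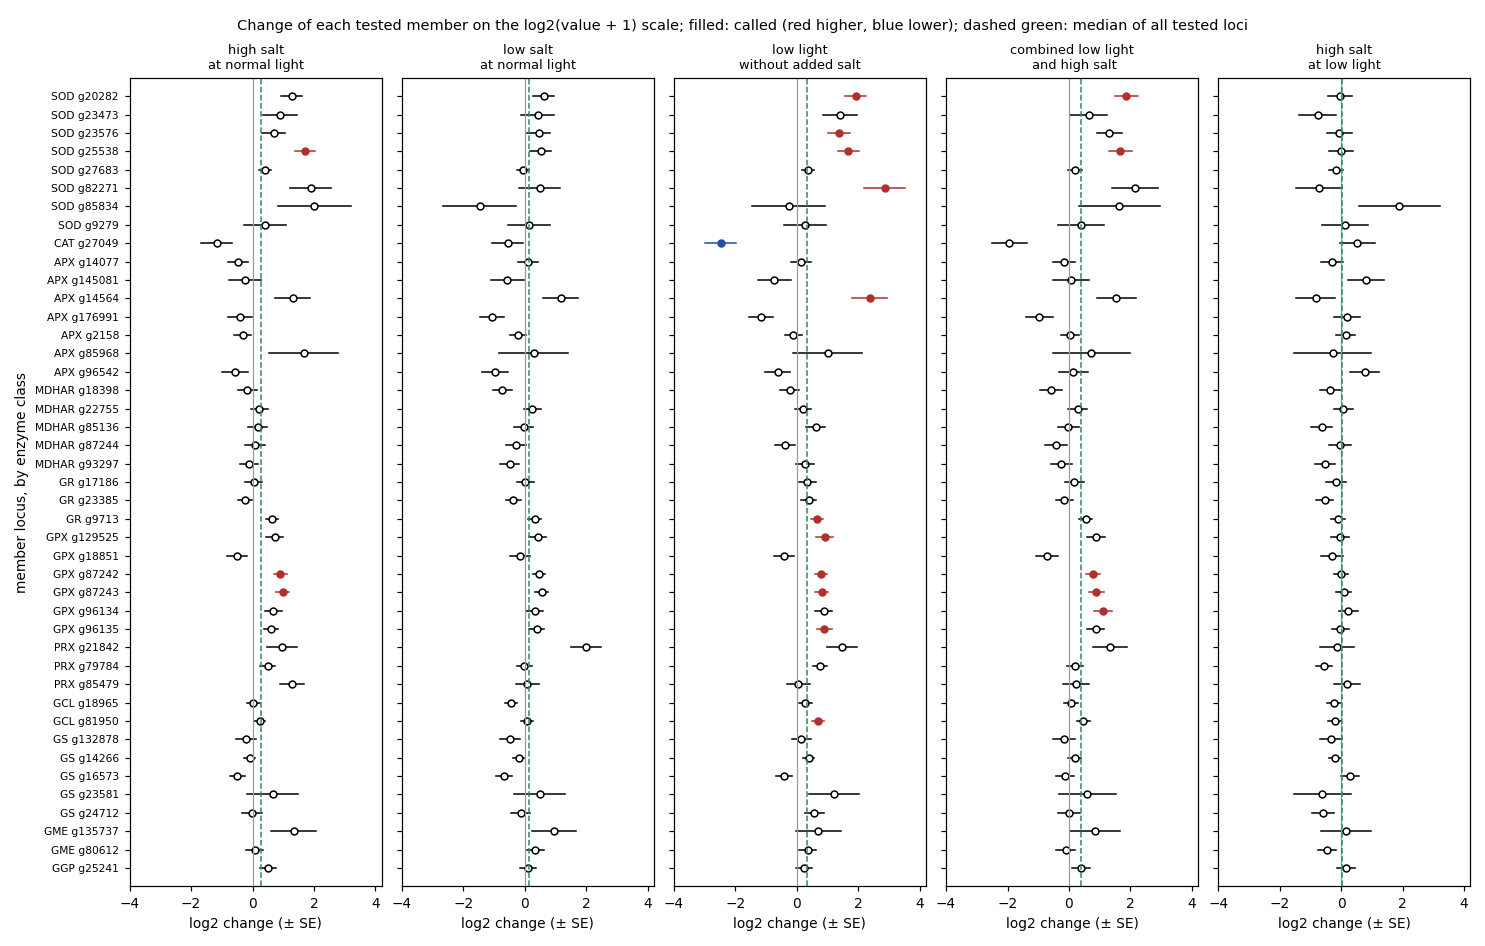
Change of each of the 43 tested members in 5 comparisons, as the difference in mean log2(value + 1) with its standard error (horizontal axis) by locus and enzyme class (vertical axis), with called loci filled in red (higher) or blue (lower) and the median of all tested loci as a dashed green line. SOD, superoxide dismutase. CAT, catalase. APX, ascorbate peroxidase. MDHAR, monodehydroascorbate reductase. GR, glutathione reductase. GPX, glutathione peroxidase. PRX, peroxiredoxin. GCL, glutamate-cysteine ligase. GS, glutathione synthetase. GME, GDP-mannose 3,5-epimerase. GGP, GDP-L-galactose phosphorylase. Most filled points, 12, lie in the low-light panel, the single blue one is catalase, and the panel for high salt at low light has none. The point of PRX g85479 in high salt at normal light is a description, since this locus passed the filter only through that group.

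The plot of changes shows called members in 6 of the 11 classes at low light. There 4 of 8 superoxide dismutases and 4 of 6 glutathione peroxidases rose, together with 1 of 7 ascorbate peroxidases, 1 of 3 glutathione reductases and 1 of 2 glutamate-cysteine ligases, beside 10.8% of all loci called higher. In the scaled fit 1 superoxide dismutase was called higher and none of the other loci, while catalase, 1 ascorbate peroxidase and 1 glutathione synthetase were called lower. No monodehydroascorbate reductase, peroxiredoxin, glutathione synthetase, GDP-mannose 3,5-epimerase or GDP-L-galactose phosphorylase locus passed the threshold in any comparison as deposited. Classes were not compared with each other by a test, and loci of a class may share reads. In these bulk leaf samples, a change in the share of cells of a type and a change in RNA per cell cannot be told apart.

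The superoxide dismutases comprised 5 copper/zinc (Cu/Zn) loci, 2 iron (Fe) loci and 1 locus of the manganese/iron family. Cytosolic Cu/Zn SOD g25538 read 54.4, 63.5 and 53.0 in the normal-light controls, 97.4, 76.9 and 73.0 in low salt, 224, 262 and 113 in high salt, 173, 123 and 290 in the low-light controls, and 202 and 166 in low light with high salt. All 8 libraries of high salt or low light lay above all 6 control and low-salt libraries at normal light, with high-salt replicate 3 the lowest of the 8. The locus rose by 1.71 ± 0.34 (SE) in high salt (adjusted p = 0.0275), by 1.68 ± 0.34 at low light (adjusted p = 0.00859) and by 1.67 ± 0.38 in the combination (adjusted p = 0.0221). The scaled fit gave an adjusted p of 0.07, 0.052 and 0.112 for the same comparisons. The high-salt call also ended without normal-light control replicate 1 (0.102) or 3 (0.107) or high-salt replicate 1 (0.0913) or 2 (0.0722), and with only the groups compared (0.0675). The combined call ended without normal-light control replicate 1 (0.0745) or 3 (0.0689) or either of the combined libraries (0.209 and 0.09), and the low-light call held without any 1 library. All 3 of its transcripts were higher in each of the 3 comparisons, by 1.29 to 1.89.

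A second cytosolic Cu/Zn SOD, g20282, behaved alike at low light but passed the threshold less widely. It read 17.6, 20.9 and 14.4 in the normal-light controls, 32.1, 25.4 and 25.1 in low salt, 66.5, 46.3 and 26.8 in high salt, 66.7, 45.4 and 105 in the low-light controls, and 72.8 and 60.6 in low light with high salt. Every low-light library was above every control and low-salt library at normal light, whereas high-salt replicate 3 was within the range of low salt. The rise was 1.91 ± 0.34 at low light (adjusted p = 0.00472) and 1.87 ± 0.38 in the combination (adjusted p = 0.0146). The low-light call remained after median-of-ratios scaling (adjusted p = 0.0204), and without any 1 library. The combined one ended in the scaled fit (0.056), and without normal-light control replicate 3 (0.0524) or combined replicate 1 (0.162) or 2 (0.073). High salt gave 1.28 ± 0.34 (adjusted p = 0.0577), which was not called. The cytosolic loci g20282 and g25538 both had barley as their best-hit species, and reads may be shared between them.

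Chloroplast Cu/Zn SOD g82271 had the largest fitted low-light change among the members and a wide spread. Its abundance was 23.0, 68.6 and 15.3 in the normal-light controls, 94.4, 46.6 and 15.6 in low salt, 121, 165 and 68.1 in high salt, 203, 133 and 382 in the low-light controls, and 106 and 165 in low light with high salt. The low-light libraries all lay above the controls, and high-salt replicate 3 fell just below the highest control. At low light the locus rose by 2.86 ± 0.67 (adjusted p = 0.0164), with an adjusted p of 0.0504 after median-of-ratios scaling. The call ended without normal-light control replicate 1 (0.0676) or 3 (0.0677), or without low-light control replicate 3 (0.0552), and with only the groups compared (0.0577).

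Fe SODs are chloroplast enzymes in plants. Fe SOD g23576 read 20.5, 21.3 and 27.7 in the normal-light controls, 34.2, 36.6 and 25.5 in low salt, 31.6, 27.5 and 59.9 in high salt, 35.2, 103 and 62.4 in the low-light controls, and 61.5 and 55.5 in low light with high salt. The low-light groups did not overlap the controls, and low-light control replicate 2 stood highest. It rose by 1.37 ± 0.37 at low light (adjusted p = 0.0281), with 0.161 after median-of-ratios scaling and 0.0743 without low-light control replicate 2. The call also ended without normal-light control replicate 1, 2 or 3 or low-light control replicate 3, at adjusted p of 0.0995, 0.0635, 0.0553 and 0.0644.

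The other Fe SOD, g23473, was highest in the same library, at 92.5 in low-light control replicate 2 against 14.5 and 44.4 in replicates 1 and 3 and 12.6 to 17.0 in the normal-light controls. It was not called in any comparison. Of the remaining loci, the manganese/iron-family g27683 stayed between 12.5 and 25.7 over all 14 libraries. Cytosolic Cu/Zn g85834 ranged from 0.558 in normal-light control replicate 1 to 147 in high-salt replicate 2, and its 2 companions in that high-salt group read 2.00 and 17.6. Locus g9279 held 2 transcripts, 1 of them named a helicase, and stayed at or under 8.47. Over the class, 8 of 8 fitted changes were positive in high salt, with adjusted p from 0.0275 to 0.753. All 8 were positive after scaling too, down to 0.03 for g27683. At low light 7 of 8 were positive as deposited and 6 of 8 after scaling. Of the 43 tested members 29 were positive in high salt and 33 at low light, and 22 in each after scaling. The high-salt counts include g85479, which passed the filter on low values only through libraries of that group. The share of positive changes over all loci was not worked out.

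**Figure D2:**
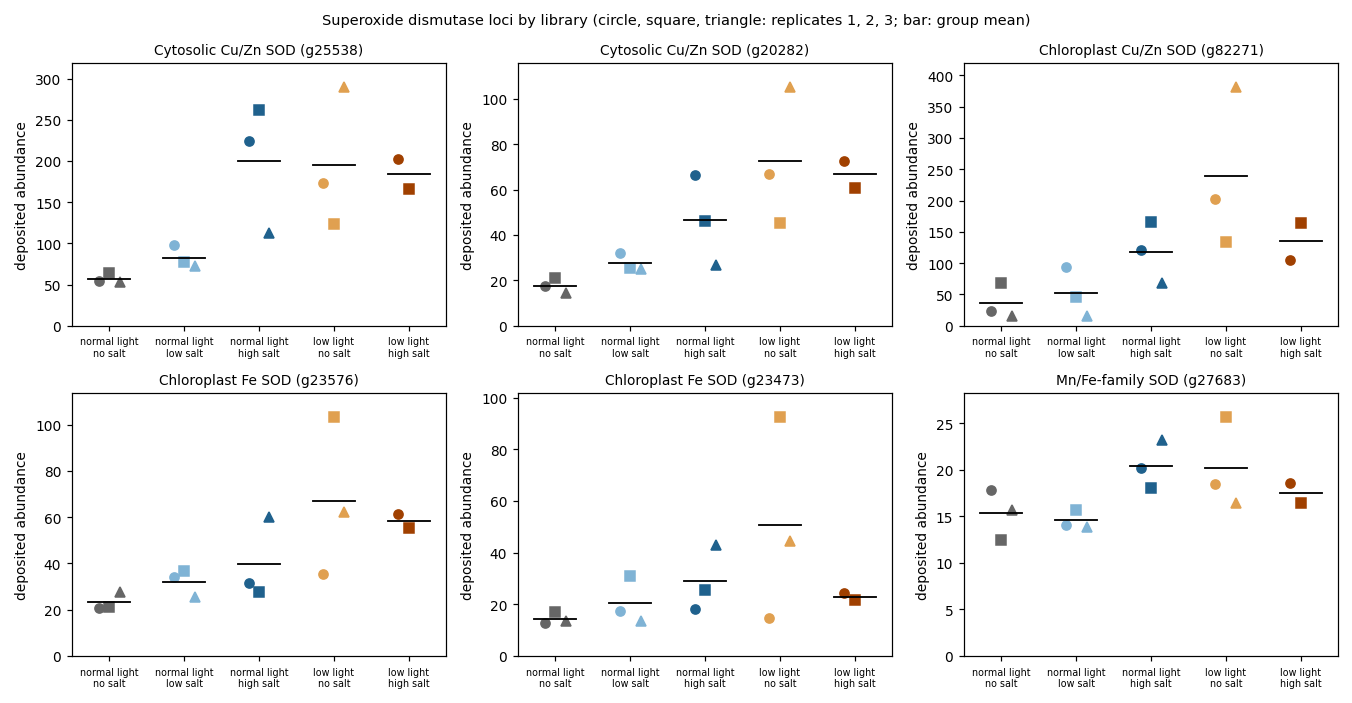
Deposited abundance (vertical axis, unit not named by the authors) of 6 superoxide dismutase loci in each of the 14 libraries, by group (horizontal axis). Circles, squares and triangles mark replicates 1, 2 and 3, and bars mark group means. In g25538 and g20282 every low-light library lies above the normal-light controls, and in g23576 and g23473 low-light control replicate 2 stands above its group.

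The plot of superoxide dismutases also shows which libraries were high. In the Cu/Zn loci g25538, g20282 and g82271 low-light control replicate 3 was the highest of the low-light controls, and in the Fe loci g23473 and g23576 it was replicate 2. High-salt replicate 3 was the lowest of its group in the same 3 Cu/Zn loci and the highest in both Fe loci. The other Cu/Zn loci followed this in part. Locus g9279 was highest among the low-light controls in replicate 1 and lowest of the high-salt group in replicate 3. Locus g85834 was highest among the low-light controls in replicate 3 and lowest of the high-salt group in replicate 1.

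Catalase was the 1 member called lower as deposited, with all transcripts of a locus summed. Locus g27049, named Catalase-1, read 2542, 2894 and 2084 in the normal-light controls, 1885, 1799 and 1441 in low salt, 809, 937 and 1807 in high salt, 319, 1212 and 228 in the low-light controls, and 613 and 677 in low light with high salt. Each library outside the normal-light control lay below the lowest control. High-salt replicate 3 and low-light control replicate 2 were closest to the controls within their groups. At low light catalase fell by 2.48 ± 0.51 on the log2 scale (adjusted p = 0.00887), and the call remained after median-of-ratios scaling (-2.95, adjusted p = 0.00561). A fit with the compared groups alone gave 0.0728.

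The other changes of catalase did not pass the threshold as deposited. The combination gave -1.95 ± 0.57 (adjusted p = 0.0542), which passed after median-of-ratios scaling (-2.46, adjusted p = 0.0319). High salt gave -1.16 ± 0.51 (adjusted p = 0.19) and low salt -0.55 ± 0.51 (adjusted p = 0.723). All 11 transcripts of the locus were lower at low light, by 2.02 to 2.98 on the log2 scale, and all 11 were lower in high salt and in the combination. Of these 11 transcripts 8 bore the catalase name and held 67.0% of the locus's abundance.

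Of 7 ascorbate peroxidase loci 1 rose at low light, beside 10.8% of all loci, and none passed the test in another comparison as deposited. The locus that rose was g14564, named after the chloroplast ascorbate peroxidase 8 and best matched in barley. It read 4.44, 7.08 and 2.69 in the normal-light controls, 9.77, 12.3 and 11.8 in low salt, 15.9, 7.18 and 16.8 in high salt, 10.2, 72.8 and 26.4 in the low-light controls, and 18.8 and 11.8 in low light with high salt. Every library outside the normal-light control exceeded the highest control, and low-light control replicate 2 was far above the rest. Its change at low light was 2.38 ± 0.57 (adjusted p = 0.0174), and the scaled fit gave 0.0501. Without normal-light control replicate 1 or 3 the adjusted p was 0.0603 or 0.0689.

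A further 3 loci carried the same ascorbate peroxidase 8 name and had changes at low light from -0.74 to 0.13, none called. For g145081 the same low-light control replicate 2 was the lowest of all libraries, at 3.47 against 9.29 and 22.5 in replicates 1 and 3. The cytosolic ascorbate peroxidase 2 locus g176991 read 4.45, 3.48 and 4.99 in the normal-light controls and 1.43, 1.66 and 1.45 in low salt, without overlap. Its change was -1.07 ± 0.39 in low salt (adjusted p = 0.298) and -1.16 ± 0.39 at low light (adjusted p = 0.0632). After median-of-ratios scaling the low-light change was -1.47 and was called (adjusted p = 0.0282). Locus g2158, named putative ascorbate peroxidase 6, had 23 transcripts of which 5 bore that name. It ranged from 65.7 to 132 with overlapping groups, and its best hit in the Nr protein database was a chitinase-like protein, as it was for g85968.

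Glutathione peroxidases, which in plants mostly use thioredoxin as the electron donor, had called loci in high salt at normal light, at low light and in the combination. The loci g87243 and g87242 share the best hit of a mitochondrial phospholipid hydroperoxide glutathione peroxidase 6 and may share reads. The first read 74.5, 92.3 and 74.8 in the normal-light controls, 103, 118 and 136 in low salt, 150, 164 and 164 in high salt, 109, 179 and 145 in the low-light controls, and 168 and 133 in low light with high salt. All 11 other libraries lay above the normal-light controls. It was higher by 0.98 ± 0.21 in high salt (adjusted p = 0.0334), by 0.81 ± 0.21 at low light (adjusted p = 0.0239) and by 0.89 ± 0.23 in the combination (adjusted p = 0.037). None of the 3 calls remained in the scaled fit, where the adjusted p was 0.14, 0.36 and 0.395. The high-salt call ended without normal-light control replicate 1 or 3 or high-salt replicate 1 or 2 (0.075 to 0.131), and the low-light call without normal-light control replicate 1 or 3 or low-light control replicate 2 or 3 (0.0587 to 0.0925). The combined call ended without normal-light control replicate 1 or 3, high-salt replicate 1 or either combined library (0.0503 to 0.309).

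Its partner g87242 read 68.8, 80.7 and 67.0 in the normal-light controls, 124, 153 and 133 in high salt, 98.2, 130 and 151 in the low-light controls, and 138 and 111 in the combination, and low salt gave 89.9, 110 and 98.8. Here too no library of another group reached down to the controls. Its rises were 0.91 ± 0.20 (adjusted p = 0.0344), 0.78 ± 0.20 (adjusted p = 0.0211) and 0.78 ± 0.22 (adjusted p = 0.0486) for high salt, low light and the combination. The scaled fit gave an adjusted p of 0.176, 0.389 and 0.568. Without 1 library the high-salt call ended for the same 4 libraries as in g87243, and the low-light call ended without normal-light control replicate 1 or 3 or low-light control replicate 3 (0.0692 to 0.0804). The combined call held only without low-light control replicate 1 or 3, among the 14 libraries left out in turn.

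The glutathione peroxidase 4 loci g96134, g96135 and g129525 moved by similar amounts. They share a name and a best-hit species and may share reads. Locus g96134 read 55.3, 72.0 and 89.0 in the normal-light controls, 66.4, 107 and 99.9 in low salt, 113, 86.2 and 149 in high salt, 122, 125 and 146 in the low-light controls, and 192 and 123 in the combination. The low-light groups were above the controls, and high salt overlapped them. It rose in the combination, by 1.11 ± 0.31 (adjusted p = 0.0454), and low light gave 0.88 ± 0.27 (adjusted p = 0.0508). Locus g96135 rose by 0.89 ± 0.24 and g129525 by 0.91 ± 0.27 at low light (adjusted p = 0.0293 and 0.0434). In the scaled fit the adjusted p was 0.204, 0.238 and 0.27 for the calls of g96134, g96135 and g129525. Leaving out 1 library ended the call of g96134 for every normal-light control, both combined libraries and 5 others (low-salt replicates 2 and 3, high-salt replicate 1, low-light control replicates 2 and 3). It ended that of g96135 for normal-light control replicate 1 or 2 and low-light control replicate 2 or 3 (0.0616 to 0.121). It ended that of g129525 for 8 libraries, namely normal-light control replicates 1 and 2, low-salt replicate 3, high-salt replicates 1 and 2 and all 3 low-light controls (up to 0.159). The sixth locus, g18851, was the one with negative summed changes, from -0.16 to -0.72 against the normal-light control. Of its 8 transcripts 2 bore the peroxidase name, and the transcripts moved apart. At low light 6 were higher and 2 lower (-1.92 to 0.87), and the same counts held in the combination (-2.22 to 0.77). All 8 were lower in high salt. Over the class 5 of 6 changes were positive in high salt, at low light and in the combination, as deposited and after scaling. Of the 43 tested members 29, 33 and 30 were positive in these comparisons, and 22, 22 and 19 after scaling. Those for high salt include g85479, which passed the filter on low values only through libraries of that group. The share over all loci was not worked out.

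**Figure D3:**
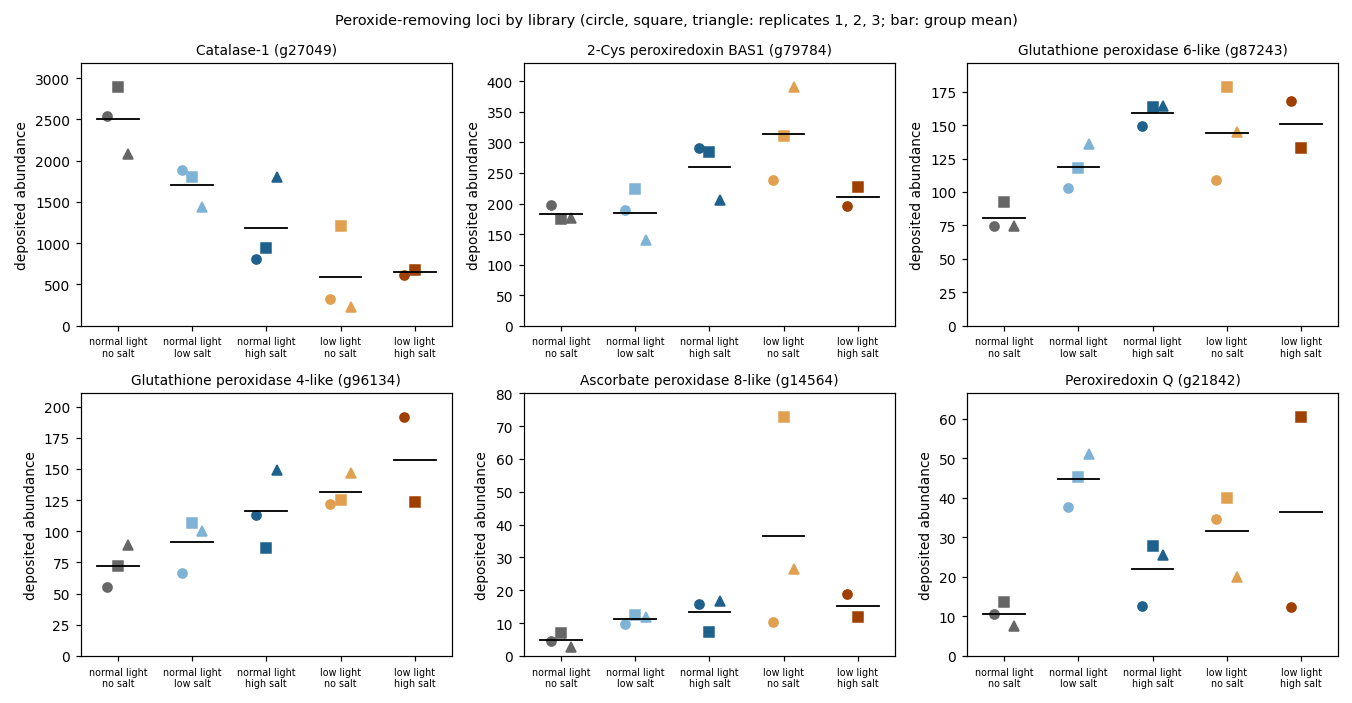
Deposited abundance (vertical axis, unit not named by the authors) of 6 peroxide-removing loci in each of the 14 libraries, by group (horizontal axis). Circles, squares and triangles mark replicates 1, 2 and 3, and bars mark group means. Catalase g27049 is highest in the 3 normal-light controls, at 2084 to 2894, while g87243 is lowest there, at 74.5 to 92.3.

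The plot of peroxide-removing loci places the falling catalase beside loci with rising or unclear values. The 2-Cys peroxiredoxin BAS1 locus g79784, a thiol peroxidase of the chloroplast, read 198, 174 and 177 in the normal-light controls, 190, 224 and 140 in low salt, 290, 284 and 207 in high salt, 239, 311 and 391 in the low-light controls, and 195 and 226 in the combination. High salt and the low-light control lay above the normal-light controls, and the combination overlapped them. At low light the change was 0.75 ± 0.24 (adjusted p = 0.0529), not called.

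Peroxiredoxin Q g21842, another chloroplast thiol peroxidase, was 10.7, 13.6 and 7.46 in the normal-light controls and 37.7, 45.1 and 51.1 in low salt. These groups did not overlap, and low salt held the highest group mean of this locus, 44.6 ± 6.72 (SD, n = 3). The fitted change of 2.00 ± 0.49 had the smallest p among the members in low salt (adjusted p = 0.157). In the combination its libraries read 12.3 and 60.4. The 1-Cys peroxiredoxin g85479 was listed at 0 in the 3 normal-light controls and at 2.31, 0.146 and 2.81 in high salt, and elsewhere it stayed at or under 0.302. It passed the filter on low values only through high-salt replicates 1 and 3, so no test of that group is given.

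Of the recycling enzymes, 1 of 3 glutathione reductases and 0 of 5 monodehydroascorbate reductases were called at low light, beside 15.1% of all loci. Cytosolic glutathione reductase g9713 read 37.3, 38.5 and 36.8 in the normal-light controls, 48.8, 43.5 and 49.5 in low salt, 47.5, 52.8 and 79.0 in high salt, 56.8, 65.4 and 56.2 in the low-light controls, and 62.6 and 48.4 in the combination. Every other library was above the closely spaced normal-light controls. It rose by 0.65 ± 0.20 at low light (adjusted p = 0.0474). This call ended after median-of-ratios scaling (0.18, adjusted p = 0.626) and without any single low-light control library (adjusted p = 0.0704, 0.104 and 0.0787 without replicates 1, 2 and 3). Of the 14 libraries left out in turn, 12 ended it, all but high-salt replicates 1 and 3, and the adjusted p reached 0.13. High salt gave 0.62 ± 0.20 (adjusted p = 0.0925).

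Chloroplast glutathione reductase g23385 read 91.5, 88.4 and 105 in the normal-light controls and 109, 163 and 109 in the low-light controls, a change of 0.39 ± 0.24 (adjusted p = 0.298) that was -0.08 after scaling. The 5 monodehydroascorbate reductases had adjusted p of 0.199 or more in every comparison with the normal-light control. Among them the chloroplast reductase 5 g18398 read 74.4, 93.4 and 72.0 in the normal-light controls and 53.2 and 51.9 in the combination. Those groups did not overlap, and the change was -0.59 ± 0.35 (adjusted p = 0.295). Low salt, at 39.7, 61.3 and 44.0, lay below the controls too, with -0.73 ± 0.31 (adjusted p = 0.373).

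Among the enzymes that build glutathione, 1 locus was called as deposited, at low light, where 10.8% of all loci were called higher. Glutamate-cysteine ligase B g81950, an enzyme of the first and rate-limiting step, read 9.88, 8.47 and 8.85 in the normal-light controls, 9.67, 10.0 and 9.33 in low salt, 10.2, 10.4 and 11.7 in high salt, 16.1, 11.5 and 18.7 in the low-light controls, and 12.4 and 13.4 in the combination. All low-light libraries exceeded the controls, with replicate 2 the lowest of the low-light controls. It rose by 0.68 ± 0.19 at low light (adjusted p = 0.0344), which became 0.24 (adjusted p = 0.483) after median-of-ratios scaling. Its call ended without any 1 of the 3 normal-light control libraries (adjusted p = 0.078, 0.0803 and 0.0965 without replicates 1, 2 and 3). It also ended without low-light control replicate 1 or 3 (0.0734 and 0.107) or either combined library (0.0504 and 0.051). Glutamate-cysteine ligase A g18965 gave 0.28 ± 0.20 (adjusted p = 0.378).

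Glutathione synthetase completes that route. Locus g14266 read 21.0, 22.5 and 22.9 in the normal-light controls and 31.0, 30.1 and 26.5 in the low-light controls, without overlap, and its change of 0.38 ± 0.18 was not called (adjusted p = 0.17) and was -0.08 after scaling. Synthetase g16573 went the other way at low light, with -0.43 ± 0.26 (adjusted p = 0.283). In the scaled fit it was called lower there (-0.84, adjusted p = 0.0481).

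Ascorbate synthesis was represented by 3 loci, none called. Of all loci 4.01%, 15.1% and 8.63% were called in high salt, at low light and in the combination. GDP-L-galactose phosphorylase g25241, a control point of the plant ascorbate route, read 115, 213 and 129 in the normal-light controls and 188, 211 and 221 in high salt, so the groups overlapped (0.49 ± 0.26, adjusted p = 0.273). GDP-mannose 3,5-epimerase g80612 stayed between 7.30 and 19.2 in all libraries.

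**Figure D4:**
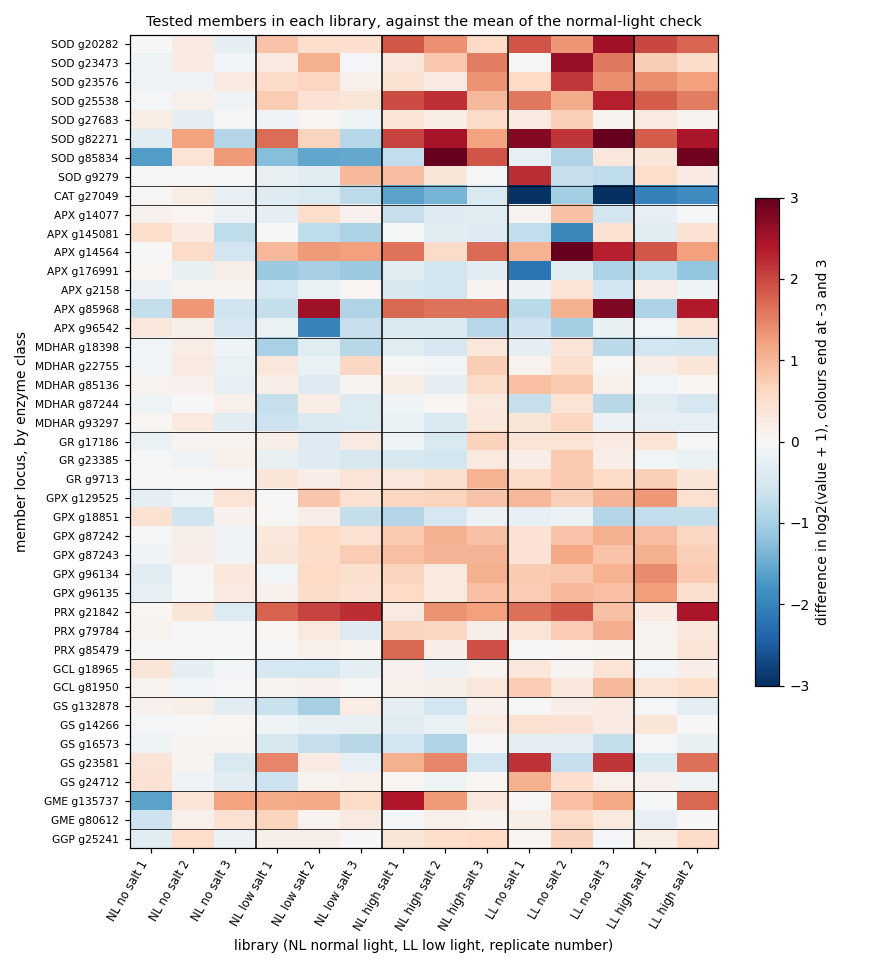
The 43 tested members (vertical axis, by enzyme class, abbreviated as in the plot of changes) in each of the 14 libraries (horizontal axis, by group), coloured by the difference of log2(value + 1) from the mean of the normal-light controls, with colours ending at -3 and 3. The row of catalase g27049 is blue outside the normal-light controls, and the rows of g25538, g20282 and g82271 are red in high salt and at low light.

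The map of members by library shows how far single libraries departed from their groups. High-salt replicate 3 was the highest of its group in catalase g27049, glutathione reductases g17186 and g23385 and monodehydroascorbate reductase g18398. It was the lowest of that group in the Cu/Zn SODs g25538, g20282 and g82271 and in peroxiredoxin g79784. Low-light control replicate 2 stood out likewise, as the highest of its group in catalase and in both Fe SODs and the lowest in those 3 Cu/Zn SODs.

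High salt on top of low light was compared with the low-light control. No member passed the test by limma, beside 0.564% of all tested loci, and 0 members had an unadjusted p under 0.05 (7.93% of all loci did), with 2 libraries in the high-salt group. The scaled fit gave 0 members too, beside 0.427% of all loci. The smallest p-values belonged to peroxiredoxin BAS1 g79784 (-0.55 ± 0.27, adjusted p = 0.677), glutathione reductase g23385 (-0.53 ± 0.27, adjusted p = 0.701) and monodehydroascorbate reductase g85136 (-0.63 ± 0.35, adjusted p = 0.754). In each of these loci both high-salt libraries lay below the 3 low-light controls. Values of g85136 were low, at 0.712 and 0.882 against 1.01 to 2.39. For g25538 the change was 0.00 ± 0.38 (adjusted p = 1.0), with 202 and 166 within the range of the low-light controls.

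Whether the high-salt change differed between light levels was tested as the interaction of light and salt. No member was called by limma, beside 0.206% of all tested loci, and 9 members had an unadjusted p under 0.05 (14.5% of all loci did). In the scaled fit 0 were called, beside 0.26% of all loci, and 4 had an unadjusted p under 0.05 (12.8% of all loci). The smallest p-values were for Cu/Zn SOD g25538 (-1.71 ± 0.51, adjusted p = 0.182), glutathione peroxidase g87242 (-0.92 ± 0.29, adjusted p = 0.201) and peroxiredoxin g79784 (-1.04 ± 0.36, adjusted p = 0.228). In each of them the high-salt libraries exceeded the controls at normal light and lay within or below their range at low light. The low-light and high-salt comparisons share the normal-light controls, so their likeness in the members is not independent.

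Low salt, the milder treatment by its label, called no member. The smallest p-values were for peroxiredoxin Q g21842, ascorbate peroxidase g176991 (both above) and glutathione peroxidase g87243 (0.56 ± 0.21, adjusted p = 0.311). For g25538 the low-salt libraries lay above the controls without overlap, at 73.0 to 97.4 against 53.0 to 63.5, with a change of 0.52 ± 0.34 (adjusted p = 0.59).

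Other redox genes were searched by name in 5 lists. Of 8 tested loci that supply NADPH, the reductant for glutathione reductase, 2 were called higher in high salt and 2 at low light, beside 3.03% and 10.8% of all loci. In the scaled fit 1 was higher in high salt, 0 at low light, and 1 was lower in the combination. That fit called 156 of the 20375 loci higher and 418 lower in high salt. It called 3.57% higher and 7.13% lower at low light, and 2.45% and 4.3% in the combination. NADP-dependent malic enzyme g24292 read 0.483, 0.611 and 0.340 in the normal-light controls and 10.3, 4.70 and 31.6 in high salt, and 3.05 and 2.86 in high salt at low light against 0.224 to 0.310 in the low-light controls. At both light levels the high-salt libraries lay above their controls. This locus passed the filter on low values only through high-salt libraries. Its calls in high salt, 1 of the 2 as deposited and the only 1 in the scaled fit, are therefore descriptions. Cytosolic glucose-6-phosphate dehydrogenase g25858 rose by 1.92 ± 0.44 in the same comparison (adjusted p = 0.0403, and 0.0794 after scaling).

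Of 26 tested loci that produce peroxide or superoxide, 2 rose in high salt, beside 3.03% of all loci, and 1 rose and 3 fell at low light, beside 10.8% and 4.33%. The scaled fit called 1 higher and 3 lower in high salt, 0 and 5 at low light and 0 and 4 in the combination. Over all 20375 loci it called 156 higher and 418 lower in high salt. The shares were 3.57% and 7.13% at low light, and 2.45% and 4.3% in the combination. Respiratory burst oxidase B g92222, a plasma membrane enzyme that makes superoxide, read 1.06, 1.39 and 1.52 in the normal-light controls and 9.17, 9.62 and 4.17 in high salt, a rise of 1.83 ± 0.32 (adjusted p = 0.0218, and 0.0287 after scaling). The peroxisomal 2-hydroxy-acid oxidase GLO5 g129317, a glycolate oxidase of photorespiration, read 256, 219 and 239 in the normal-light controls and 99.5, 156 and 71.0 in the low-light controls. It fell by 1.19 ± 0.35 at low light (adjusted p = 0.0402, and 0.0141 after scaling). The other locus of that family called, GLO4 g8200, rose in high salt and at low light, by 1.34 ± 0.29 and 1.07 ± 0.29 (adjusted p = 0.0358 and 0.0311), with 0.0618 and 0.144 after scaling. Both sulfite oxidase loci called, g18831 and g25803, fell at low light by 0.78 ± 0.22 and 0.80 ± 0.23 (adjusted p = 0.0358 each, and 0.0035 and 0.00554 after scaling).

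Of 37 tested loci of cysteine supply and glutathione use, 1 rose in high salt, 5 rose and 1 fell at low light, and 2 rose and 1 fell in the combination. Over all loci 3.03% were higher in high salt, 10.8% higher and 4.33% lower at low light, and 6.6% and 2.03% in the combination. The scaled fit called 0 in high salt, 0 higher and 2 lower at low light, and 1 and 2 in the combination. Its shares of all loci were 2.82% in high salt, 3.57% and 7.13% at low light, and 2.45% and 4.3% in the combination. Serine acetyltransferase 4 g27466, an enzyme of the step before cysteine, read 51.2, 31.1 and 75.8 in the normal-light controls and 2.22, 7.59 and 8.45 in the low-light controls. It fell by 2.98 ± 0.64 (adjusted p = 0.0106, and 0.00706 after scaling). Gamma-glutamylcyclotransferase g81659, which degrades glutathione, rose by 2.22 ± 0.42 in the combination (adjusted p = 0.0101, and 0.0361 after scaling). Of 9 tested loci of the early ascorbate route and ascorbate use, phosphomannomutase g19338 rose at low light and in the combination (10.8% and 6.6% of all loci), by 0.97 ± 0.21 and 0.94 ± 0.24 (adjusted p = 0.0125 and 0.0329, and 0.105 and 0.234 after scaling). That list had 1 locus lower at low light and 0 called in the combination in the scaled fit. Over all loci that fit called 7.13% lower at low light, and 2.45% higher and 4.3% lower in the combination. None of the 7 loci of repair and metal handling was called by limma in the 6 comparisons, as deposited or after scaling.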

How the data were processed

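The authors deposited 1 table with a signal per assembled transcript and library, in an unnamed unit, with protein database hits. The submitters' processing notes name Bowtie 0.12.2, HISAT2 2.0, StringTie 1.3.0 and the mouse build mm8, with no role, and do not tell how transcripts were assembled. The extraction text in the labels speaks of rice leaves. The 65536 lines reach a row limit, so the table holds part of the assembly. It gives no counts, and the depth is unknown.

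Transcripts were summed to loci by their identifiers. Left out were 4 broken lines, 3 loci at the edges of the table and 965 loci with a fungal best hit, listed by genus. Loci reaching 1 in 2 or more libraries (20375) entered 1 limma fit (3.58.1, R 4.3.3) of log2(value + 1), as 5 group means over 14 libraries with eBayes (trend and robust), after a check on simulated data. Adjustment was by Benjamini-Hochberg over all tested loci in each of 6 comparisons. Alternatives changed the scaling, pseudocount, filter, libraries and transcripts used. Replicates within a group had correlations of 0.846 to 0.953 (13 pairs). Named members were the highest of each class and all called, or else the 3 with the smallest p. Members and lists were chosen with earlier results of these data known. Other loci were named after their values were seen.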

Additional observations from a re-analysis of the deposited data

Results flagged for a closer look

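In 9 of the 43 tested members every high-salt library moved one way from the control mean at normal light and the other way at low light. None of these differences passed the test of the interaction, so they are descriptions. The share of all tested loci with such a pattern was not worked out, so the count is not read as a trait of the members. On the log2 scale the interaction was -2.14 ± 0.85 for ascorbate peroxidase g14564 (adjusted p = 0.285), with changes of 1.31 at normal and -0.83 at low light. It was 1.69 ± 0.76 for catalase g27049 (adjusted p = 0.334), with -1.16 and 0.53. Chloroplast Cu/Zn SOD g82271 gave -2.61 ± 1.01 (adjusted p = 0.274), with 1.90 and -0.72. Peroxiredoxin g79784 gave -1.04 ± 0.36 (adjusted p = 0.228), with 0.49 and -0.55, and glutamate-cysteine ligase B g81950 gave -0.44 ± 0.29 (adjusted p = 0.496), with 0.23 and -0.21. After median-of-ratios scaling the normal-light change of g81950 was -0.13. The SODs g23473 and g27683 gave -1.65 and -0.57 (adjusted p = 0.368 and 0.404), and the ascorbate peroxidases g145081 and g96542 gave 1.05 and 1.34 (adjusted p = 0.559 and 0.347).

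Among the 8 loci with an antioxidant enzyme name and a fungal best hit, 5 stood above every normal-light control in both libraries of low light with high salt. The share of all 965 loci with a fungal best hit that did so was not worked out, so the count is a description. Superoxide dismutase g93467 had a mean of 8.52 there against at most 0.210 in the controls. Peroxiredoxin g135604 had 3.75 against at most 0.170, and peroxiredoxin g97261 had 1.48 against 0 in all 3 controls. Superoxide dismutase g149358 had 1.07 against 0, and catalase g90633 had 0.419 against at most 0.134. In the low-light controls g93467, g135604, g97261 and the catalases g143801 and g21141 were above every normal-light control too, with means of 1.57, 0.918, 0.170, 0.150 and 0.0462. In low salt this held for g93467 and g149358, with means of 1.88 and 0.0825. All loci with a fungal best hit held 0.0332% to 0.0415% of the abundance in the normal-light controls, 0.0672% to 0.207% in low salt, 0.0866% to 0.117% in high salt, 0.0714% to 0.268% in the low-light controls and 0.264% to 0.391% in low light with high salt.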

How the results depend on the processing

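The low-salt, high-salt-at-low-light and interaction comparisons called 0 members under every alternative run. High salt called 3 members, and 0 under median-of-ratios scaling or with only the groups compared. Low light called 12, 4 under that scaling and 2 with only the groups compared. The combination called 5, and 1 under that scaling, 3 with no filter, 3 with the replicate block and 2 with the most abundant transcript of each locus (an alternative chosen after seeing the data). Another such alternative summed only the transcripts that bore the enzyme name. It called 13 members at low light (11 higher, 2 lower) and 7 in the combination (5 higher, 2 lower). Leaving out 1 library gave 0 to 4 for high salt, 3 to 14 for low light and 0 to 7 for the combination. High salt reached 0 without normal-light control replicate 1 or 3 or high-salt replicate 1. It gave 1 call when high-salt replicate 2 was left out. Low light reached 3, 7 and 5 without normal-light control replicates 1, 2 and 3 and 4 without low-light control replicate 3. The combination reached 0 without normal-light control replicate 3 or either of its own libraries, where the lone library was assumed to vary like the others, 1 without normal-light control replicate 1, 2 without high-salt replicate 1 and 3 without low-salt replicate 2 or 3. Of the 20 named calls 2 were kept under median-of-ratios scaling, 14 with the replicate block and 4 to 19 without 1 library, and 0 reversed. Same-numbered libraries did not deviate together (correlations -0.169 to 0.145, 26 pairs), so the numbers were not used as pairs. The cause of these changes was not tested.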

Other observations

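The balance of catalase to cytosolic Cu/Zn SOD within a library does not depend on library scaling. It was chosen after the values were seen and is a description. The ratio of summed abundance of g27049 to that of g25538 was 46.7, 45.6 and 39.3 in the normal-light controls, 19.4, 23.4 and 19.8 in low salt, and 3.62, 3.58 and 16.0 in high salt. It was 1.84, 9.84 and 0.787 in the low-light controls and 3.04 and 4.07 in low light with high salt. The control, low-salt and high-salt groups at normal light did not overlap, in that order. High-salt replicate 3 and low-light control replicate 2 had the highest ratio of their groups. The separation of low from high salt depended on the partner locus. With peroxiredoxin g79784 or glutathione peroxidase g87243 in place of g25538, high-salt replicate 3 lay within the range of low salt. The normal-light controls stayed above both salt groups with either partner. The ratio of g20282 to g25538, both cytosolic Cu/Zn SODs, stayed between 0.177 and 0.385 in all 14 libraries.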
